A study of Mus musculus with 18 samples.

Results

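The mir-17-92 polycistron is a primary transcript that carries 6 miRNA hairpins within a short stretch. In transcript order they are mmu-mir-17, mmu-mir-18a, mmu-mir-19a, mmu-mir-20a, mmu-mir-19b and mmu-mir-92a. The members were taken by name from the deposited counts, where they made up 6 of 1006 miRNA entries. All 6 passed the filter on low counts, which kept 273 entries. The entries mir-19b and mir-92a have another gene copy on chromosome X, and the counts do not separate the copies.

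The counts came from 18 small RNA libraries of Baf3 cells, an interleukin-3-dependent pro-B line of the mouse. All cells carried fluorescent reporters of mutated miR-15a and miR-16 and were stably transduced with Cas9 and a guide RNA. Control cells (labelled Rag1_KO) received guides against Rag1, a recombinase gene with no role in miRNA biogenesis. SAFB cells (labelled Safb1 KO, Safb2 KO) received guides against both Safb genes, and ERH cells (labelled Erh KO) received guides against Erh. Each genotype had 2 guide populations with 1 library of each in each of 3 labelled batches, so 6 libraries per genotype. The labels describe polyclonal populations, selected with puromycin, sorted for derepression of the miR-15a reporter and then regrown. Loss of SAFB or ERH was therefore judged by a miRNA phenotype, and Safb, Safb2 and Erh transcripts are outside these counts. Whether control cells passed through a like sort is not given in the labels. Protein-coding markers of pro-B cells are also outside small RNA counts, so the cell type was not checked.

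The Microprocessor, made of Drosha and DGCR8, cuts miRNA hairpins out of primary transcripts, and Dicer then releases the mature miRNA. ERH binds DGCR8 and SAFB proteins bind Drosha. Both are known for cluster assistance, the help that an efficiently cut hairpin gives to an inefficient neighbour on its transcript. The mir-17-92 transcript, also called oncomir-1, is induced by Myc and drives B-cell lymphoma when it is overexpressed. Its members repress the proapoptotic Bcl2l11 among other targets. Hairpins of such a cluster are transcribed together, and their mature levels can still differ through processing and stability.

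The mature strands named by RefSeq (GRCm38.p6) for the 6 members are shown because the seeds sort the members into 4 target families. Capitals mark the seed, bases 2 to 8 from the 5′ end.
miR-17-5p: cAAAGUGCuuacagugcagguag
miR-20a-5p: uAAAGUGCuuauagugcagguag
miR-18a-5p: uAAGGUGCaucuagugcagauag
miR-19a-3p: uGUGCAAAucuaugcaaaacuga
miR-19b-3p: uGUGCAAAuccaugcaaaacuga
miR-92a-3p: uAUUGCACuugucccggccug

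With positions counted from 1 at the 5′ end, miR-19a-3p and miR-19b-3p shared 1 seed and differed by the single substitution U11C. miR-17-5p and miR-20a-5p shared another seed and differed by C1U and C12U. Reads of such close relatives can be split by the authors' counting in a way that is not given in the sources used here, so the split within each pair is uncertain. The deposited entry names give no arm, and the strand shown is the one the family is named for.

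The 6 hairpins lay on the plus strand of chromosome 14 in GRCm38, within 836 bp from chr14:115043671 to chr14:115044506. The gaps between neighbours were 35 to 96 bp. GENCODE M21 places all of them in an exon of the 1 annotated transcript of Mir17hg (chr14:115042879-115046727), a noncoding host gene. The hairpin of mir-19a (gene Mir19a, chr14:115044000-115044081) and that of mir-19b in this cluster (Mir19b-1, chr14:115044305-115044391) are printed because these relatives moved apart in ERH cells. Capitals mark the mature strand.
Mir19a: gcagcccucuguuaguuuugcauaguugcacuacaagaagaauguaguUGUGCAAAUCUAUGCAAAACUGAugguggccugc
Mir19b-1: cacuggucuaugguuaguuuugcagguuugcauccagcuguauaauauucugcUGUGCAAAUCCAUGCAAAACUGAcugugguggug

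Library totals were 2699323 to 4470073 miRNA counts, and the members had 1484 to 85651 counts per library, so counting error was small beside the spread between libraries. CPM values, counts relative to library size, are scaled here by the trimmed mean of M-values (TMM). Summed over the 6 members, the level was 55188 ± 4127 CPM (SD, n = 6) in control cells, 31172 ± 1386 in SAFB cells and 36074 ± 1259 in ERH cells. These sums were 56.5% and 65.4% of the control sum, and the libraries of the 3 genotypes did not overlap (ERH and control libraries did with spike-in scaling, at 79.8%). As a share of all miRNA counts, with no scaling between libraries, the cluster made up 5.09% ± 0.311, 2.96% ± 0.194 and 4.12% ± 0.231 in control, SAFB and ERH cells. In these bulk libraries, fewer cells that express the cluster and less RNA per cell cannot be told apart.

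In control cells the counts of the members, which share a transcript, spanned a wide range. By mean CPM, mir-19b ranked 9 among the 1006 entries, mir-20a 15, mir-19a 22, mir-92a 23, mir-17 46 and mir-18a 66. Each step in this order was free of overlap between control libraries except that from mir-19a to mir-92a, where mir-19a was higher in 3 of 6 libraries. The mature strands printed above are 21 to 23 bases long, and levels of different miRNAs were compared as counts without a correction for length. Whether the libraries captured each sequence equally well was not tested, so the order is one of counts. In SAFB cells mir-92a stood above mir-19a in 5 of 6 libraries, with overlapping ranges. In ERH cells mir-19a had dropped to the level of mir-17, which it exceeded in 4 of 6 libraries with overlapping ranges.

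**Figure D1:**
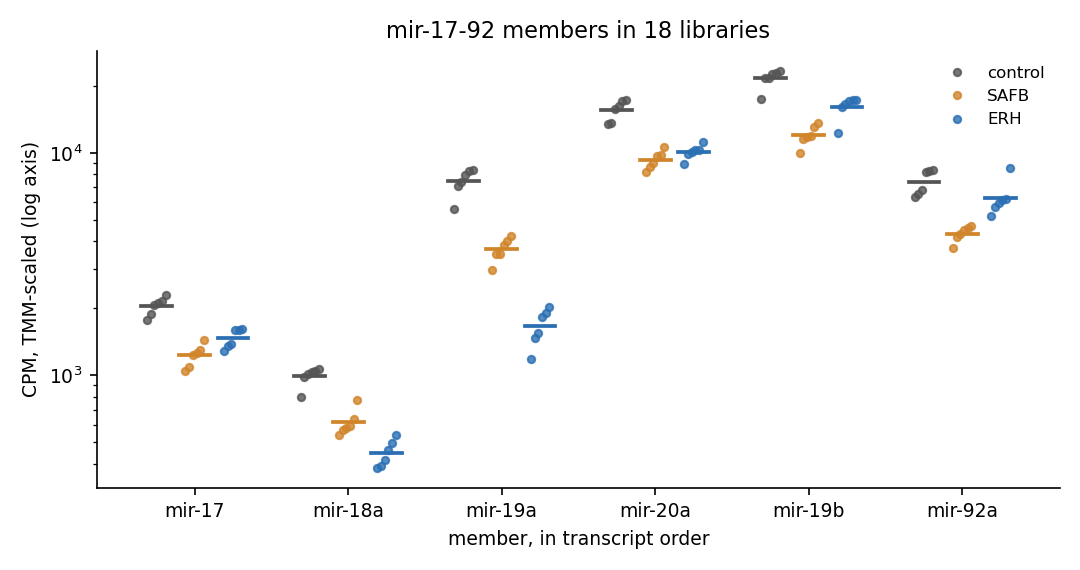
CPM (TMM-scaled, log axis) of the 6 members in 18 libraries, with 1 point per library and a bar at the mean of each genotype. Every SAFB library lies below every control library for each member, and mir-19a in ERH cells lies between 1186 and 2029 CPM against 5618 to 8418 in control cells.

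The first question was how the cluster changed without SAFB proteins. All 6 members fell, with log2 fold changes from -1.02 to -0.69, at 49.3% to 62.0% of their mean control CPM. With TMM scaling, SAFB and control libraries overlapped for none of the 6. As a share of miRNA counts they overlapped for mir-18a, at 0.0758% in SAFB guide 1 batch 3 against 0.0754% in control guide 2 batch 3. How many other tested miRNAs separated likewise was not counted. The members' median log2 fold change was -0.76, beside 0.0083 over all 273 miRNAs tested. In the same comparison 56.0% of tested miRNAs were called at an adjusted p under 0.05, 25.3% lower and 30.8% higher. All tests of this kind are edgeR quasi-likelihood tests with Benjamini-Hochberg adjustment over the 273.

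mir-17, the first hairpin, had 1771 CPM in its lowest control library, a median of 2092 and a highest value of 2294, against 1040, 1249 and 1439 in SAFB cells. Its edgeR log2 fold change was -0.74 (SE 0.086, adjusted p = 1.2e-07). mir-20a carries the same seed, which targets cell cycle regulators such as Cdkn1a, and stood at 13503, 15989 and 17342 CPM in control cells (lowest, median, highest). In SAFB cells the values for mir-20a were 8183, 9364 and 10685, a log2 fold change of -0.74 (SE 0.076, edgeR adjusted p = 1.6e-08). These seed relatives thus fell by like amounts.

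mir-18a, whose loop is bound by hnRNP A1 as a known aid to its processing, had the lowest CPM of the cluster. Its control libraries ran from 796.7 over a median of 1023 to 1065 CPM, and its SAFB libraries from 537.7 over 585.2 to 770.6. The log2 fold change of mir-18a was -0.69 (SE 0.10, edgeR adjusted p = 3.2e-06). With TMM scaling the highest SAFB library of mir-18a came close to its lowest control library without reaching it. As a share of miRNA counts that SAFB library lay above that control library.

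The miR-19 pair is the part of the cluster best known for its lymphoma-promoting activity. mir-19a had 5618, 7689 and 8418 CPM in control cells and 2963, 3692 and 4229 in SAFB cells (lowest, median, highest). Its log2 fold change of -1.02 (SE 0.12, edgeR adjusted p = 1.0e-07) was the lowest of the members. mir-19b fell from 17418, 22209 and 23466 CPM to 9959, 11850 and 13664, a log2 fold change of -0.85 (SE 0.087, edgeR adjusted p = 1.5e-08). mir-92a, the last hairpin, known as a brake on blood vessel growth, fell from 6356, 7514 and 8380 to 3730, 4399 and 4680 CPM, a log2 fold change of -0.78 (SE 0.10, edgeR adjusted p = 5.0e-07).

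The spread between the lowest and the highest member in SAFB cells was 0.33 on the log2 scale. The 4 guide-by-guide comparisons of each member all had the same sign, for mir-19a from -1.17 to -0.86. Within the 3 batches mir-19a differed by -0.94, -1.20 and -0.91. Scaling by spike-in RNAs shifted the median of all tested miRNAs to -0.23 in SAFB cells, and the 6 members were still all called lower, among 58 miRNAs lower and 44 higher.

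The next question was how the cluster changed without ERH. The members were again lower under TMM scaling, but far from evenly. mir-19a fell most, to 22.3% of its mean control CPM, followed by mir-18a at 45.3%. mir-20a stood at 64.6%, mir-17 at 71.7%, mir-19b at 74.4% and mir-92a at 84.7%, the last with a direction that turned under other scalings. The spread between members was 1.93 on the log2 scale. Among all tested miRNAs 53.8% were called in this comparison, 27.5% lower and 26.4% higher, with a median of -0.061. The members' median was -0.55.

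mir-19a had 1186, 1691 and 2029 CPM in its lowest, median and highest ERH library, all below its lowest control value of 5618 CPM. The log2 fold change was -2.17 (SE 0.12, edgeR adjusted p = 2.3e-13), the value 6th from the lowest among 273 miRNAs. All 4 guide-by-guide differences lay between -2.36 and -1.99, and the 3 batches gave -2.03, -2.13 and -2.38. mir-18a ran from 382.5 over 439.4 to 540.5 CPM in ERH cells, with a log2 fold change of -1.14 (SE 0.10, edgeR adjusted p = 9.9e-10). Its batches gave -1.40, -1.01 and -1.03. Both hairpins lie between mir-17 and mir-20a on the transcript, and both of those flanking members fell less.

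mir-17 had 1283, 1486 and 1612 CPM in ERH cells (lowest, median, highest), a log2 fold change of -0.48 (SE 0.086, edgeR adjusted p = 4.6e-05). mir-20a had 8874, 10168 and 11153 CPM, a log2 fold change of -0.63 (SE 0.076, edgeR adjusted p = 1.7e-07). mir-19b had 12322, 16839 and 17292 CPM, a log2 fold change of -0.43 (SE 0.087, edgeR adjusted p = 0.00019). With TMM scaling no ERH library reached a control library for these 3 members. As a share of miRNA counts mir-17 overlapped, with up to 0.193% in ERH cells against 0.168% in the lowest control library. So did mir-19b, with up to 2.05% against 1.65%. How many other tested miRNAs separated likewise was not counted. The calls of these 3 members also depended on the scaling. mir-17 and mir-19b lost theirs when libraries were scaled by total counts (log2 fold changes of -0.17 and -0.12) or by spike-ins. mir-20a lost its call with spike-ins (-0.36).

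mir-92a in ERH cells ran from 5211 over 6041 to 8530 CPM. Of 6 libraries, 5 lay below all control libraries and 1, ERH guide 2 batch 3, lay above them all. The log2 fold change of -0.24 (SE 0.099) had an edgeR adjusted p of 0.0456. With the batch number as a replicate block the adjusted p was 0.0523 at the same size. The direction turned with total-count scaling (0.071) and with spike-in scaling (0.040), and the call was kept in 6 of 37 alternatives. It was lost on leaving out any single library but ERH guide 2 batch 3. No change of mir-92a in ERH cells was thus established.

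Scaling moved the whole distribution in this comparison: the median of all tested miRNAs was 0.24 under total-count scaling and 0.23 under spike-in scaling. Relative to the median of all tested miRNAs, mir-19a differed by -2.11 to -2.09, mir-18a by -1.09 to -1.07, mir-20a by -0.58 to -0.56, mir-17 by -0.42 to -0.41, mir-19b by -0.37 to -0.36 and mir-92a by -0.19 to -0.17 over 4 scalings. A change of scaling shifts all members alike, so these distances from the median hardly move by construction. Under total-count scaling 108 miRNAs were called higher and 33 lower in ERH cells, and under spike-in scaling 72 higher and 19 lower. Summed miRNA counts over summed spike-in counts, as log2, came to 8.72 ± 0.39 in control cells, 8.44 ± 0.21 in SAFB cells and 8.69 ± 0.42 in ERH cells (SD, n = 6).

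**Figure D2:**
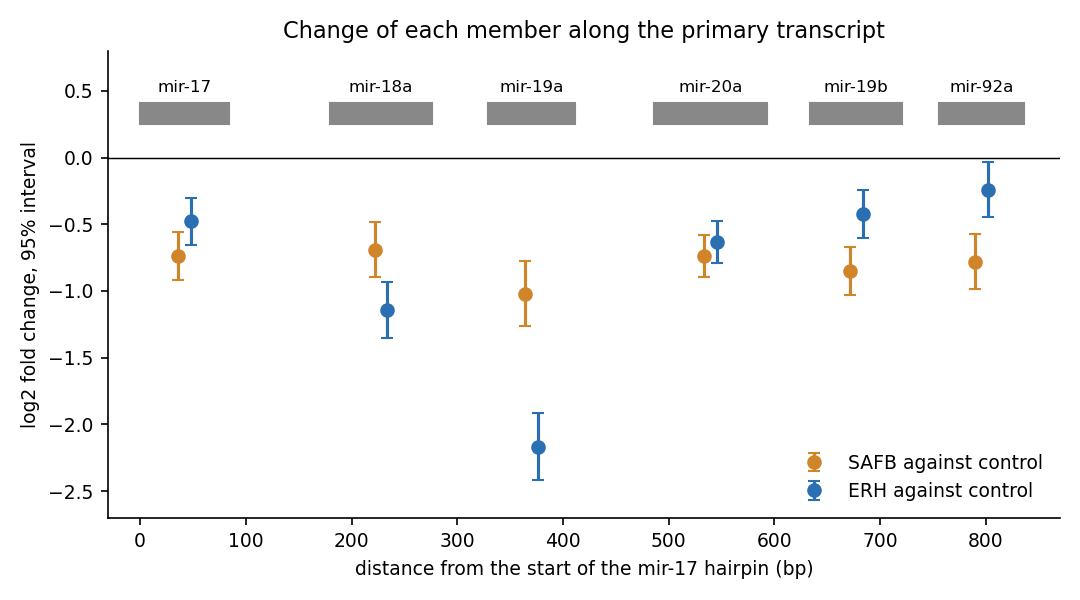
Log2 fold change of each member (TMM scaling, points with 95% intervals) against its distance from the start of the mir-17 hairpin in bp, with hairpins drawn to scale as bars. SAFB values lie between -1.02 and -0.69, while ERH values run from -2.17 at mir-19a to -0.24 at mir-92a, the last of which turns positive with total-count or spike-in scaling.

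The direct comparison of the knockouts asked which members differed between them. mir-19a was lower in ERH than in SAFB cells, with a log2 fold change of -1.15 (SE 0.12, edgeR adjusted p = 6.2e-08), at 45.1% of its SAFB level, with no overlap between libraries. mir-92a was higher by 0.54 (SE 0.10, edgeR adjusted p = 0.00014), again without overlap, and mir-19b by 0.43 (edgeR adjusted p = 0.00038), with 5 of 6 ERH libraries above all SAFB libraries. mir-18a was lower, at -0.45 (edgeR adjusted p = 0.00090), a call lost with total counts (-0.19, edgeR adjusted p = 0.156) and a direction that turned to 0.075 with spike-ins, and mir-17 higher by 0.26 (edgeR adjusted p = 0.019). The call of mir-17 was lost in 9 of 37 alternatives, among them leaving out any 1 of 5 libraries: SAFB guide 2 in batches 1 and 3, ERH guide 1 in batches 2 and 3, and ERH guide 2 in batch 2, with log2 fold changes down to 0.21. mir-20a differed by 0.11, with a 95% interval of -0.046 to 0.27 and an edgeR adjusted p of 0.276. Leaving out 1 library moved this difference to between 0.054 and 0.14, still not called. mir-20a was called, however, with total counts (0.38, edgeR adjusted p = 0.00066) and with spike-ins (0.64, edgeR adjusted p = 0.012). With spike-ins mir-19a differed by -0.61, mir-92a by 1.09, mir-19b by 0.98 and mir-17 by 0.80, so the sizes of these differences depended on the scaling. With TMM 5 of 6 members were called, 2 lower and 3 higher, where 39.6% of all tested miRNAs were called, 15.8% lower and 23.8% higher. The median of all tested miRNAs was 0.042 with TMM, 0.31 with total counts and 0.57 with spike-ins, and the last 2 scalings called 115 and 111 miRNAs higher and 8 and 1 lower.

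The ratio of 1 member to another in the same library needs no scaling between libraries. The ratio of each member to mir-17 was compared by exact two-sided permutation tests of 6 against 6 libraries, 15 tests adjusted together, with 0.0022 as the smallest p that 924 arrangements allow. In control cells mir-19a had 3.62 counts for each count of mir-17 (geometric mean), in SAFB cells 2.99 and in ERH cells 1.12. The log2 ratio of mir-19a to mir-17 ran from 1.62 to 2.03 in control cells, from 1.19 to 1.87 in SAFB cells and from -0.19 to 0.56 in ERH cells. ERH libraries stood apart from all others, while SAFB and control libraries overlapped.

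The mean log2 ratio of mir-19a to mir-17 differed by -1.70 between ERH and control cells (95% interval -1.99 to -1.40, exact permutation p = 0.0022, adjusted 0.0081). Between ERH and SAFB cells it differed by -1.42 (-1.77 to -1.07, exact permutation p = 0.0022, adjusted 0.0081). The batches gave -1.38, -1.71 and -2.004 against control. SAFB cells differed from control by -0.27 (-0.54 to 0.0017, exact permutation p = 0.052, adjusted 0.130), which does not pass. With the geometric mean of mir-17, mir-18a and mir-20a as the denominator, the SAFB to control difference was -0.29 and passed (exact permutation, adjusted 0.0413). mir-19a thus fell relative to mir-17 in ERH cells, and for SAFB cells the call depended on the denominator.

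The log2 ratio of mir-18a to mir-17 was -1.05 ± 0.12 in control cells, -1.004 ± 0.083 in SAFB cells and -1.72 ± 0.086 in ERH cells (SD, n = 6). It was lower in ERH than in control cells, with a difference of -0.67 (95% interval -0.81 to -0.54), and than in SAFB cells, with -0.72 (-0.82 to -0.61), each with an exact permutation p of 0.0022, adjusted 0.0081, and no overlap. Within batches the difference from control was -0.76, -0.60 and -0.65. With mir-20a as the denominator it was -0.52. With the geometric mean of mir-17, mir-19a and mir-20a as the denominator it was -0.054 and did not pass (adjusted 0.435), a denominator that holds mir-19a and fell with it. The ERH to SAFB difference with that denominator was -0.19 and still passed (exact permutation, adjusted 0.039). The SAFB to control difference in the ratio to mir-17 was 0.049 (-0.087 to 0.18), and with the geometric-mean denominator it was 0.14 and passed (exact permutation, adjusted 0.036).

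With mir-17 as the denominator, the ratios of the other 3 members did not pass in any of the 3 comparisons over all libraries. For mir-20a the ERH to control difference was -0.15 (95% interval -0.35 to 0.062) and the ERH to SAFB difference -0.15 (-0.28 to -0.020, exact permutation p = 0.0195, adjusted 0.058), which passed on leaving out ERH guide 2 batch 3 (-0.18, adjusted 0.0195). For mir-19b the ERH to control difference was 0.051 (-0.16 to 0.26), and for mir-92a it was 0.23 (-0.15 to 0.63). The SAFB to control differences were 0.0030 (-0.18 to 0.19) for mir-20a, -0.11 (-0.38 to 0.15) for mir-19b and -0.032 (-0.37 to 0.30) for mir-92a. With mir-20a as the denominator mir-92a passed against control (0.38, exact permutation, adjusted 0.042) and against SAFB cells (0.41, adjusted 0.013). With the geometric mean of the single-copy members, mir-20a turned to 0.64 and was called in ERH cells against control, and 0.56 against SAFB cells, as were mir-19b (0.68 and 0.73) and mir-92a (0.86 and 0.84). The calls of these 3 members thus depended on the denominator.

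**Figure D3:**
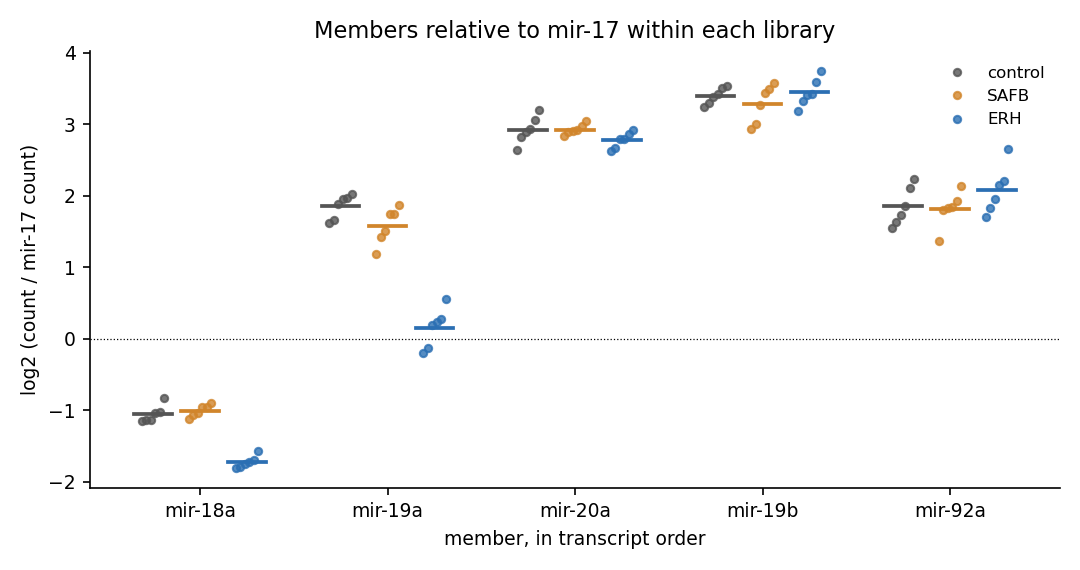
Log2 ratio of each member's count to the mir-17 count of the same library, with 1 point per library and a bar at the mean of each genotype. In the 6 ERH libraries mir-19a sits between -0.19 and 0.56 and mir-18a between -1.80 and -1.57, below every control and SAFB library, while the other 3 members overlap between genotypes.

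The miR-19 relatives, which differ by 1 base, moved apart. mir-19a stood at 34.3% of mir-19b in control cells (geometric mean), 30.6% in SAFB cells and 10.2% in ERH cells. On the log2 scale this ratio was -1.54 ± 0.071, -1.71 ± 0.066 and -3.29 ± 0.21 (SD, n = 6). It ran from -3.55 to -3.03 in ERH libraries against -1.63 to -1.47 in control libraries. As the mir-19b entry also counts the copy on chromosome X, the ratio is not confined to this transcript. It is given as a description with no test.

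The hairpins were compared for features that the choice of members did not use. RNAfold gave the mir-19a hairpin a minimum free energy of -38.7 kcal/mol, or -0.472 per base, at the 22.7th percentile of 1005 RefSeq mouse hairpins, where lower is more stable. The hairpin of mir-18a (gene Mir18) had -29.2 kcal/mol, or -0.304 per base, at the 87.2nd percentile and thus among the less stable. The other 4 hairpins had -0.437 (mir-17), -0.361 (mir-20a), -0.434 (mir-19b) and -0.425 (mir-92a) per base, beside a median of -0.406 over all. The 2 members that fell most against mir-17 in ERH cells were thus at opposite ends of the cluster in predicted stability.

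The letters UGU, a motif of the apical loop known to help the Microprocessor place its cut, were searched on the hairpin's own strand between the annotated arms. They occurred in mir-17, mir-20a, mir-19b and mir-92a and not in mir-18a, where the stretch is 18 bases long. For mir-19a only 1 arm is annotated in the table, so no stretch was defined. Over all hairpins with both arms annotated, 203 of 644 (31.5%) held the letters. A match describes the letters in this window only.

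The seed families bring in other loci, since a target sees the sum of all miRNAs with its seed. Families were checked against the RefSeq seeds. With the miR-17 seed (mir-17, mir-20a, mir-93, mir-106a, mir-106b, mir-20b), the summed level was 44364 ± 2156 CPM in control cells (SD, n = 6), and the SAFB and ERH sums were 83.7% and 78.4% of it. With total counts and spike-ins the ERH sum was at 96.8% and 95.6%, overlapping control libraries. The SAFB sum overlapped control with spike-ins, at 69.8%. The miR-18 sum, nearly all mir-18a, was at 62.0% and 45.3%, and with spike-ins at 52.1% and 54.9%, both overlapping control. With total counts the SAFB miR-18 sum also overlapped control, at 64.0%. The miR-19 sum was at 53.8% and 61.1%, with the ERH sum at 75.4% and 75.0% and overlapping control under total counts and spike-ins. The miR-92 sum (mir-92a, mir-25, mir-32, mir-92b, mir-363) was at 119.7% and 91.0%. The ERH miR-92 sum overlapped control under all 4 scalings. The miR-92 direction turned with scaling: it was 99.5% in SAFB cells with spike-ins, and 112.5% and 110.8% in ERH cells with total counts and spike-ins.

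Within the miR-19 sum, the share of mir-19a went from 25.6% ± 0.937 in control to 23.5% ± 0.835 in SAFB and 9.32% ± 1.21 in ERH cells (SD, n = 6). mir-92a made up 28.6% ± 3.32 of the miR-92 sum in control, 13.9% ± 0.786 in SAFB and 26.5% ± 4.07 in ERH cells. mir-17 and mir-20a together with their relatives were dominated by mir-93 of another locus, so mir-20a held 35.1% of the miR-17 sum in control, 25.2% in SAFB and 29.1% in ERH cells. These are descriptions with no test.

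**Figure D4:**
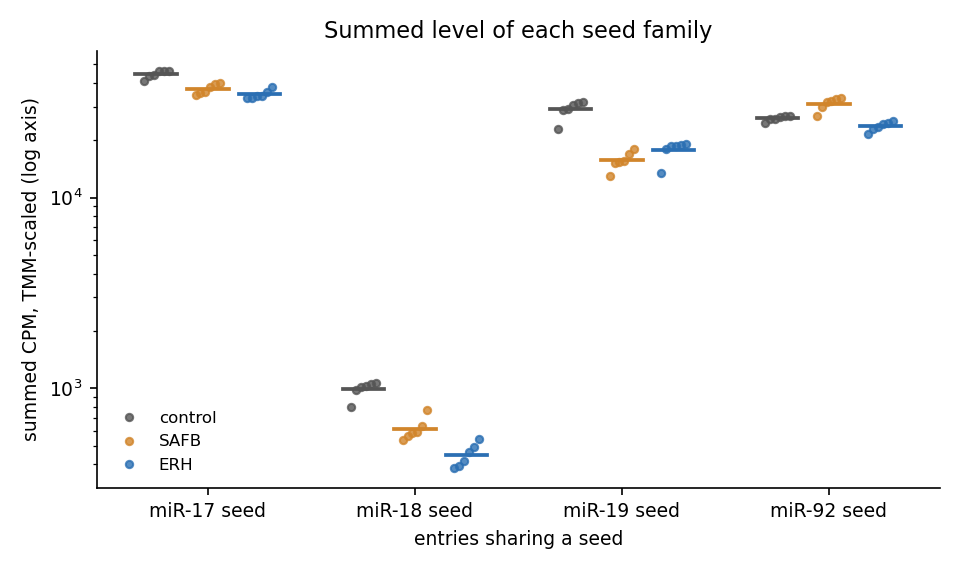
Summed CPM (TMM-scaled, log axis) of all listed entries with each seed, with 1 point per library and a bar at the mean of each genotype. With this scaling the miR-19 sum falls to 53.8% of control in SAFB and 61.1% in ERH cells, whereas the miR-92 sum stands at 119.7% and 91.0%, directions that turn with spike-ins (SAFB) and with total counts or spike-ins (ERH).

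The paralog clusters hold 7 listed entries, of which 4 passed the filter. The mir-106b-25 cluster lies on chromosome 5, in an intron of Mcm7, and its 3 entries summed to 44631 ± 1843 CPM in control, 52893 ± 4468 in SAFB and 40038 ± 3378 in ERH cells (SD, n = 6). In SAFB cells mir-25, which shares its seed with mir-92a, was higher by 0.55 (SE 0.060, edgeR adjusted p = 4.4e-08) and missed the threshold with spike-ins (0.29). There mir-93 differed by -0.0038 (edgeR adjusted p = 0.980) and mir-106b by -0.11 (edgeR adjusted p = 0.296). In SAFB cells 0 of 4 paralogs were thus called lower and 1 higher, where 25.3% and 30.8% of all tested miRNAs were called, and the difference between paralogs and members was not tested.

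In ERH cells mir-93 (-0.20, edgeR adjusted p = 0.017) and mir-106b (-0.23, edgeR adjusted p = 0.033) were called lower with TMM, and both turned positive with total counts (0.10 and 0.079) and with spike-ins (0.092 and 0.053). mir-25 differed by -0.092 (edgeR adjusted p = 0.215) with TMM. It was called higher with total counts (0.21, edgeR adjusted p = 0.0015), and was positive but not called with spike-ins (0.19, edgeR adjusted p = 0.582). Between the knockouts mir-25 was lower in ERH than in SAFB cells, at -0.65 (edgeR adjusted p = 1.8e-08), where mir-92a was higher by 0.54. The difference of -0.65 shrank to -0.095 with spike-ins and was then not called.

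Of the mir-106a-363 cluster on chromosome X (minus strand), mir-363 had 0 counts in all 18 libraries, mir-18b 0 to 2, mir-106a 1 to 9 and mir-20b 6 to 18. A count of 0 allows up to 3 counts in a library. These 4 entries have no other copy, and their levels stood beside 9959 to 23466 CPM for mir-19b and 3730 to 8530 for mir-92a, the members with a further copy in that cluster. How much of those entries came from chromosome X was not tested. mir-20b differed by -0.61 in SAFB (edgeR adjusted p = 0.089) and -0.74 in ERH cells (edgeR adjusted p = 0.045, not called with any of the other 3 scalings).

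The 2 seed relatives outside these clusters were both tested. mir-32 was called lower in SAFB cells (-0.38, edgeR adjusted p = 0.00048) and in ERH cells (-0.24, edgeR adjusted p = 0.017, positive with total counts or spike-ins). mir-92b was called higher, at 1.51 ± 1.13 CPM in control, 5.25 ± 2.44 in SAFB and 11.7 ± 4.39 in ERH cells (SD, n = 6), which rests on 1 to 69 counts per library.

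**Figure D5:**
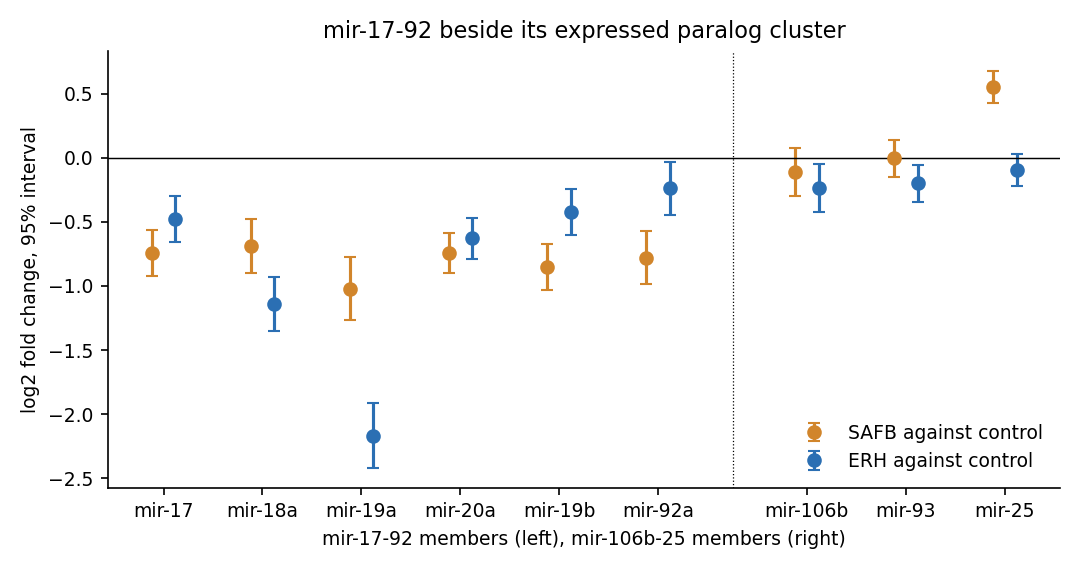
Log2 fold change (TMM scaling, points with 95% intervals) of the mir-17-92 members, left, and of the mir-106b-25 members, right, in SAFB and ERH cells against control. In SAFB cells all 6 members are negative while mir-25 stands at 0.55, and in ERH cells the points of mir-106b, mir-93, mir-25 and mir-92a turn positive with total-count or spike-in scaling.

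Profiles of log2 CPM were compared after each was centred on its own mean over the control libraries, so they describe changes and not levels. Among 147 other tested miRNAs whose mean count reached 100, the centred profile most like the mean of the members was that of let-7f, with a root mean square difference of 0.118 on the log2 scale over the 18 libraries. It was followed by mir-27b (0.157), mir-195a (0.188), mir-5099 (0.209) and mir-6539 (0.218). The members' own centred profiles lay 0.162 (mir-20a) to 0.793 (mir-19a) from their mean profile. The centred profile most like mir-19a was that of mir-374b (0.461), then mir-5123 (0.515), mir-712 (0.687), mir-5099 (0.778) and mir-6539 (0.795). mir-374b had log2 fold changes of -1.32 in SAFB and -1.61 in ERH cells, against -1.02 and -2.17 for mir-19a. These likenesses describe 18 libraries that share genotype groups.

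Guide populations of 1 genotype gave the background for all of this. Between guide 2 and guide 1, members differed by -0.17 to 0.11 in control, by -0.20 to 0.10 in SAFB and by -0.23 to 0.20 in ERH cells, and with TMM none was called or had an unadjusted p under 0.05. Over all 273 miRNAs edgeR called 0% in control, 0% in SAFB and 0.366% in ERH cells, that is 0, 0 and 1 miRNA. At an unadjusted p under 0.05 there were 7, 10 and 18, and DESeq2 called 0, 0 and 1. With TMM, the changes of all 6 members in SAFB cells were larger than any member's difference between guides. In ERH cells so were those of mir-19a, mir-18a, mir-20a, mir-17 and mir-19b. The change of mir-92a there (-0.24) was about as large as the largest guide difference (-0.23). With spike-in scaling the guide comparisons called 96 miRNAs in control and 110 in ERH cells, where TMM called 0 and 1. Members were among them, 2 in control cells (all 6 differed by 0.49 to 0.74) and 1 in ERH cells (0.37 to 0.79).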

How the data were processed

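Small RNA of 18 Baf3 libraries was counted by the authors. The deposited values are whole-number counts per miRNA entry, not normalized, for 1006 entries and 4 spike-ins, which took 0.165% to 0.366% of counts and were left out of library sizes and tests. Per the labels' protocols, total RNA was mixed with a set amount of spike-ins and libraries were made with a QIAseq miRNA kit. The submitters' processing notes name SAMtools. The aligner, annotation, genome build, treatment of reads that match several entries and collapsing of molecular identifiers are not given in the sources used here. Intervals on counts would cover counting error only.

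The deposited counts were fitted with edgeR 4.0.16 (quasi-likelihood, TMM scaling, filterByExpr with a minimum count of 10 by population, 273 miRNAs kept) in R 4.3.3, with 1 mean per genotype over all libraries. Benjamini-Hochberg adjustment ran over all 273, with calls under 0.05. Alternatives were DESeq2 1.42.0, limma 3.58.1 voom, other scalings, filters and samples, and the batch number as a replicate block; leaving out each batch was added after the data were seen. The code was tested on simulated data. Libraries of 1 population differed by more than sampling noise (chi-square over its degrees of freedom 27.5 to 157.1 in 18 pairs), so none was counted as a duplicate. P-values measure the spread among libraries, 6 per genotype from 2 populations.

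Libraries of different populations are paired by the batch number in the labels. After subtracting population means, the mean correlation was 0.093 within a batch (45 pairs) and -0.046 between batches (90 pairs), for the 153 miRNAs whose mean count reached 100. Ratios within a library used log2 of raw counts and exact permutation tests, with intervals from inverting them.

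Mature and hairpin sequences came from RefSeq (GRCm38.p6), where all 6 members, the 7 paralogs and 2 seed relatives matched by name. Free energies came from RNAfold 2.7.2. Named miRNAs were the members, the paralog entries, mir-32, mir-92b and the 5 miRNAs nearest to the members' mean and to mir-19a. The members, lists and tests were chosen with earlier results of these data known.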

Additional observations from a re-analysis of the deposited data

Results flagged for a closer look

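In 4 of 33 groups of 6 libraries 1 library stood apart by Dixon's criterion, which chance meets in about 1 of 20 groups. All 4 concerned guide 2 in batch 3. In control cells this library had 9.64 log2 CPM of mir-18a (the other 5 ran from 9.94 to 10.06) and 14.09 of mir-19b (14.40 to 14.52). In ERH cells it had 13.59 of mir-19b (13.98 to 14.08), the lowest, and 13.06 of mir-92a (12.35 to 12.60), the highest. Without that ERH library mir-92a differed from control by -0.30 (edgeR adjusted p = 0.0063) and mir-19b by -0.31 (edgeR adjusted p = 0.0011). Without that control library mir-92a in ERH cells differed by -0.15 and was not called (edgeR adjusted p = 0.234). What set these libraries apart was not tested.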

How the results depend on the processing

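In SAFB cells the 6 members were called lower in all 37 alternatives, as were mir-18a and mir-19a in ERH cells. mir-19a, mir-19b and mir-92a kept their calls between the knockouts in all 37. With total counts 3 members were called lower in ERH cells, and with spike-ins 2, among 91 miRNAs called. mir-92a in ERH cells turned to 0.071 (total counts) and 0.040 (spike-ins), and mir-18a between the knockouts to 0.075 (spike-ins). Between the knockouts, 1 member was called lower with either scaling. Spike-ins called 96 and 110 miRNAs between control and ERH guides. With the batch number as a replicate block, mir-92a in ERH cells (-0.24) had an adjusted p of 0.0523, and no other member, and no ratio permuted within batches, changed its call. mir-20a between the knockouts became called under 3 alternatives: total counts (0.38), spike-ins (0.64) and a mean of at least 100 counts (0.24).

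The ratio tests that passed with mir-17 as denominator kept their calls under 28 alternatives each, save mir-18a in ERH cells with the geometric-mean denominator, -0.054. Some of these alternatives left out a library or population of the genotype not compared. These could not change the ratio difference or its permutation p, so they add no support. With mir-20a as denominator, mir-92a passed between ERH and SAFB (0.41) and between ERH and control cells (0.38). The mir-20a to mir-17 ratio between the knockouts, -0.15 under either, then passed because the set of tests adjusted together changed. With the geometric mean of the other single-copy members, which holds mir-19a for all but mir-19a itself, SAFB to control differences became 0.14 (mir-18a) and -0.29 (mir-19a), both now called, and 0.023 (mir-92a, sign turned). ERH to control differences became 0.64 (mir-20a, sign turned), 0.68 (mir-19b) and 0.86 (mir-92a), all called, and ERH to SAFB differences 0.56 (mir-20a, sign turned), 0.73 (mir-19b) and 0.84 (mir-92a), also called. Leaving out a population turned the small SAFB differences of mir-20a to -0.081 (control guide 1) and -0.025 (SAFB guide 2), and of mir-92a to 0.11 (control guide 2) and 0.12 (SAFB guide 1). Leaving out 1 library gave -0.054 to 0.057 for mir-20a and -0.096 to 0.057 for mir-92a in SAFB cells, -0.0096 to 0.10 for mir-19b in ERH cells and -0.18 to -0.12 for mir-20a between the knockouts, which passed without ERH guide 2 batch 3. It gave 0.12 to 0.31 for mir-92a in ERH cells and -0.17 to -0.041 for mir-19b in SAFB cells, neither called. The SAFB to control difference of mir-18a then ran from 0.028 to 0.093, and was not called. For mir-20a the ERH to control difference ran from -0.20 to -0.091, also not called. The cause of these shifts was not tested beyond the denominators' make-up.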
